A study of Jatropha curcas with 22 samples.

Results

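The genes described here are those of the oilseed shrub Jatropha curcas (physic nut) whose descriptions name lipid transfer, wax, eceriferum or a 3-ketoacyl enzyme, the vocabulary of the waxy and fatty layers that seal plant surfaces. They were chosen by words in the description that the authors deposited beside each gene model. The rule used no expression values, though it was chosen with earlier results of these data known. In all, 30 descriptions contained "lipid-transfer", 18 "lipid transfer", 10 "3-ketoacyl-", 5 "eceriferum" and 1 "wax", and 0 contained "cutin", so no gene named for cutin is among them. This gave 64 of 57437 gene models. By description they were 27 lipid-transfer proteins, 15 proteins of the family that joins protease inhibitors, seed storage albumins and lipid-transfer proteins, 7 3-ketoacyl synthases, 3 further 3-ketoacyl enzymes (2 thiolases and 1 reductase), 6 eceriferum or wax2 proteins and 6 glycolipid transfer proteins.

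RNA was sequenced from young leaves (at most 2 cm long) and root tips (at most 1 cm long) of greenhouse seedlings of the Cape Verde islands strain, which all groups share. Seedlings were 36 days old at day 0. The groups, each of 2 libraries, were plants rewatered after drought (day 52), plants without water for 49 days (severe drought), plants without water for 13 days (moderate drought), and plants watered throughout and sampled on days 49 to 52 (a joint label), on day 13 and, in leaf, on day 0, which makes 12 leaf and 10 root libraries. The day 52 label puts rewatered samples 3 days past the end of the drought, whereas the labels' protocol gives 7 days of rewatering. A library pooled 6 plants on days 0 and 49 and 3 plants on days 13 and 52. The labels do not say whether the pools of a group held different plants. P-values rest on the spread between the 2 pools of a group, estimated over all groups fitted together and in part shared between genes.

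Non-specific lipid-transfer proteins are small secreted proteins that bind fatty acids and other lipids. Many are made by epidermal cells and have been linked to the transport of cuticle and suberin precursors and to defence. Waxes begin with the fatty acid elongase, in which 3-ketoacyl synthases join carbon units to a fatty acid and a 3-ketoacyl reductase acts next. Protease inhibitors of cereal seeds and seed storage albumins share the fold of lipid-transfer proteins, and descriptions often do not tell these relatives apart. In Arabidopsis, CER6 is the main synthase of wax precursors, CER2 helps to make the longest chains, and CER1 and WAX2 (also called CER3) turn them into alkanes. By its description the CER6 family gene is counted with the eceriferum genes here, so counts of 3-ketoacyl synthases below leave it out. Not every description here belongs to these layers: 3-ketoacyl thiolases act in fatty acid breakdown, Arabidopsis CER7 is a subunit of an RNA-degrading complex, and glycolipid transfer proteins move lipids between membranes inside the cell.

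Libraries held 37104762 to 82215677 reads in leaf and 40505308 to 61148792 in root, and the 64 genes took 0.54% to 1.21% of the reads of a leaf library and 0.311% to 0.54% of a root library. Levels are CPM, read counts relative to the scaled library total, given for replicate 1 and then replicate 2. After a filter on low counts, 46 of the 64 genes were tested in leaf, 48 in root and 54 where both organs were fitted together, and the other 10 had at most 15 reads in any library. A gene was called changed at an adjusted p under 0.05 in edgeR's quasi-likelihood test, adjusted over all genes tested. Organ labels were borne out by 30 photosynthesis genes, which summed to 4631 to 9644 CPM in leaf libraries and 54.6 to 127 CPM in root libraries. Protodermal factor 2 (Jcr4S16562.10), an epidermal regulator, ran from 53.3 to 127 CPM in leaf and from 0.218 to 0.98 CPM in root libraries. In bulk tissue, fewer cells of a type and less RNA per cell cannot be told apart. Other marker lists rest on words in descriptions: "histone h" or "cyclin b" for dividing cells, and "xylem cysteine" or "xylem serine" for xylem. Whether genes so named mark those cells here was not tested. Of the 64 genes, 19 share the stem of their identifier with another (8 stems). How reads that match several similar genes were counted is unknown here, so levels within these families are uncertain, most of all where neighbours move together.

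In watered plants the organs used different members. On day 13, 17 genes were higher and 27 lower in leaf than in root among the 54 tested, against 58.7% called over all genes (29% higher, 29.7% lower). A set of 3 lipid-transfer genes took most of the reads in leaf: Jcr4S01930.10 (lipid transfer protein precursor), Jcr4S04197.20 (lipid-transfer protein 3-like) and Jcr4S04197.30 (lipid transfer precursor protein) made up 83.8% and 85.2% of the summed CPM of the 64 genes in day 13 control leaves, against 1.65% and 1.64% in day 13 control roots. On the length-corrected scale of the deposited RPKM table they ranked 3, 5 and 6 among all gene models in these leaves.

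Jcr4S01930.10 stood at 2478 and 2811 CPM in day 13 control leaves, against 42.2 and 66.5 CPM in day 13 control roots (log2 fold change 5.61 ± 0.30 (SE), adjusted p = 1.05e-09). Jcr4S04197.20 had 2226 and 2358 CPM in these leaves, against 4.1 and 6.82 CPM in the roots (log2 fold change 8.72 ± 0.48 (SE), adjusted p = 1.33e-09). Jcr4S04197.30 had 1713 and 1639.7 CPM in leaf, against 7.93 and 8.17 CPM in root (log2 fold change 7.70 ± 0.55 (SE), adjusted p = 2.05e-08). Leaf and root libraries were far apart for all 3, and their calls held under every alternative run. The wax2-like gene Jcr4S00059.30 was also a leaf gene, with 42.5 and 27.1 CPM in day 13 control leaves, against 0.228 and 0.143 CPM in day 13 control roots (log2 fold change 7.49 ± 0.60 (SE), adjusted p = 7.15e-08).

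Root tips held another set. Jcr4S01946.20 (lipid-transfer protein 8-like) had 0.607 and 3.15 CPM in day 13 control leaves, against 217 and 465 CPM in day 13 control roots (log2 fold change -7.51 ± 0.86 (SE), adjusted p = 3.63e-06). In the inhibitor, storage and lipid-transfer family 11 of 14 tested genes were lower in leaf and 2 higher. Lower in leaf were Jcr4S02683.20, with 8.38 and 11 CPM in leaf against 293 and 238 CPM in root (log2 fold change -4.77 ± 0.59 (SE), adjusted p = 7.52e-06), and Jcr4S03548.10, with 24.9 and 26.6 CPM in day 13 control leaves against 283 and 442 CPM in root (log2 fold change -3.81 ± 0.20 (SE), adjusted p = 8.61e-10). Jcr4S08435.40 had 0 reads in both day 13 control leaves and 142 reads in the roots, which makes it at least 24-fold lower in leaf when each leaf library is set to 3 reads. All 3 thiolases and reductase genes and 4 of 6 genes described as 3-ketoacyl synthases were lower in leaf. Higher in leaf were 4 of 5 tested eceriferum and wax2 genes, the CER6 family gene among them. Reads carry no molecular identifiers, so such floors cover counting error only. Jcr4S02945.20, not called on day 13, was higher in leaf with the day 49/52 controls (log2 1.21, adjusted p = 0.00311 in edgeR's test). Among the genes called on day 13, the organ difference had the other sign with those later controls in 5. It passed the test with that sign in Jcr4S00065.140, Jcr4S00922.60, Jcr4S05036.50 and the CER2 family gene Jcr4S00284.120 (adjusted p = 0.000158 to 0.0498), but not in the CER6 family gene Jcr4S05705.10 (adjusted p = 0.143). Other organ differences that held under every alternative were those of Jcr4S00065.70, Jcr4S00065.90 and Jcr4S00065.100 (log2 -9.23, -9.77 and -9.53), Jcr4S00610.90 and Jcr4S00610.110 (-4.90 and -4.56), the glycolipid transfer gene Jcr4S11168.20 (-4.87) and the lipid-transfer gene Jcr4S00353.40 (5.69).

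**Figure D1:**
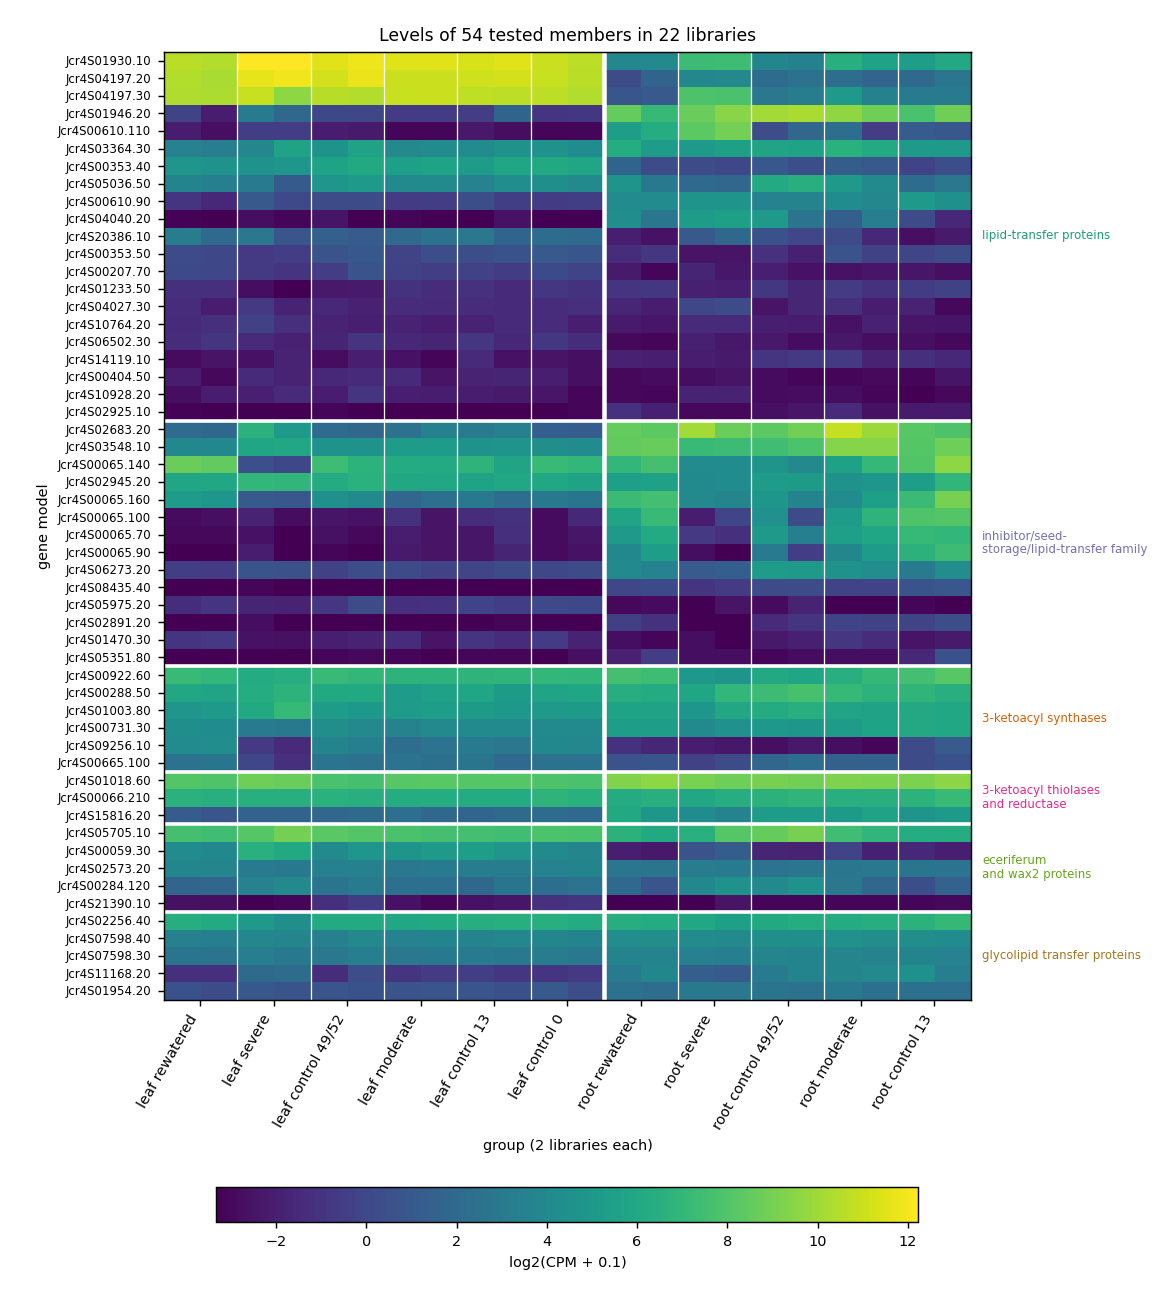
Level of the 54 tested genes, as log2(CPM + 0.1), in all 22 libraries. Rows are genes grouped by description, ordered by mean level within a class, and each group has 2 columns, leaf left of the thick line and root right of it. Brightest are Jcr4S01930.10, Jcr4S04197.20 and Jcr4S04197.30 across all leaf libraries.

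Few of these genes were called under moderate drought and many under severe drought, as among all genes. Moderate drought called 0 of 46 in leaf, against 0.00431% of all genes, and 3 of 48 in root, against 2.74%. In leaf, 3 of the 46 had an unadjusted p under 0.05 in edgeR's test, against 2007 of all 23200 genes tested. In root, 23 of the 48 did, against 5967 of all 24924. DESeq2 called 1 member in leaf and 14 in root, and its share over all genes was not counted. The 3 called by edgeR in root were 1 higher, where 1.98% of all genes were, and 2 lower, where 0.754% were. Severe drought called 27 of 46 in leaf, against 57.1%: 12 were higher (27.6% of all genes) and 15 lower (29.5%). In root it called 26 of 48, against 45.1%: 7 were higher (19.5%) and 19 lower (25.6%). Rewatered plants compared with severe drought gave 28 of 46 in leaf, against 59.3%: 11 were higher (29.1%) and 17 lower (30.2%). In root they gave 29 of 48, against 49.4%: 21 were higher (27.4%) and 8 lower (22%). Compared with the day 49/52 control, rewatered plants gave 6 of 46 in leaf, against 4.56%: 1 was higher (0.772%) and 5 lower (3.79%). In root they gave 13 of 48, against 17%: 5 were higher (8.53%) and 8 lower (8.44%). No test set these shares against those of all genes, so the counts describe these genes and do not set them apart. At 2 libraries a group, non-overlap is common: in moderate drought leaves, with 0 called, 22 of 46 members did not overlap the control. Statements below on groups that do not overlap are descriptions only, and the share over all genes was not counted.

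Median log2 fold changes of the tested members were -0.08 in severe drought leaves (0.03 over all genes tested) and -0.59 in severe drought roots (-0.04 over all genes tested). Without 1 library the 26 calls of severe drought roots became 13 (severe drought replicate 1 left out), 16 (severe drought replicate 2), 10 (control replicate 1) and 14 (control replicate 2).

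**Figure D2:**
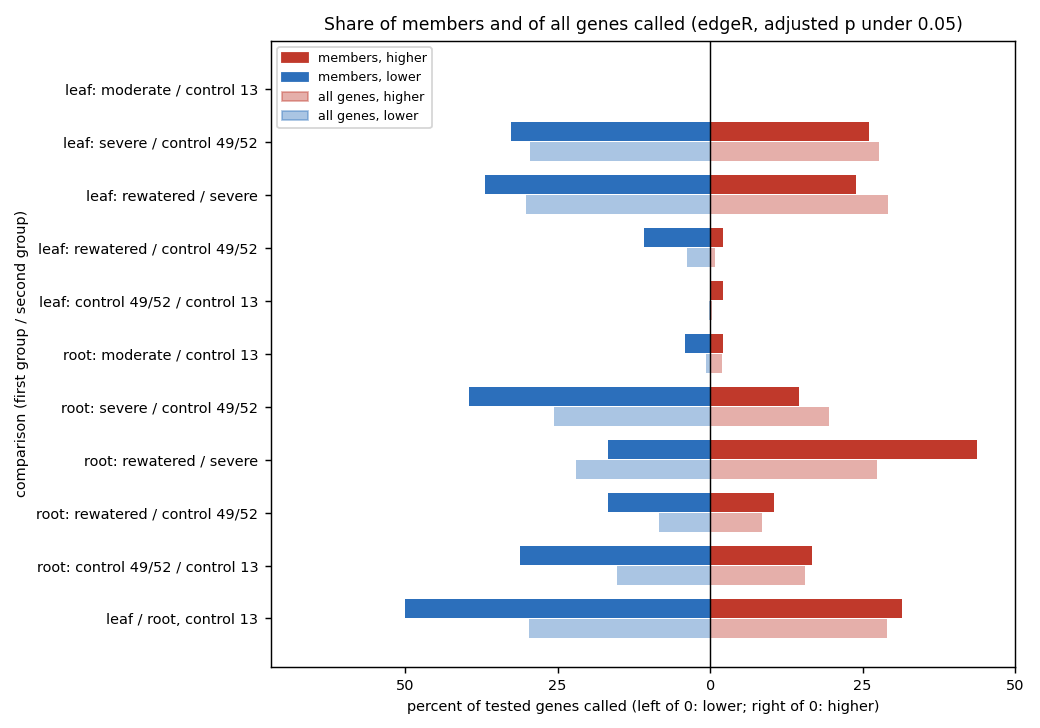
Percent of tested genes called lower (left of 0) and higher (right of 0) in each comparison, for the members (dark bars) and for all genes (pale bars). In severe drought the bars reach 58.7% of members and 57.1% of all genes in leaf, and 54.2% of members and 45.1% of all genes in root. In day 13 control leaf against day 13 control root they reach 81.5% of members and 58.7% of all genes.

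Moderate drought gave few calls by edgeR in these genes. In leaf, the smallest p belonged to Jcr4S03548.10, an inhibitor, storage and lipid-transfer family gene, with 37.5 and 37 CPM in moderate drought leaves, against 24.9 and 26.6 CPM in day 13 control leaves (log2 fold change 0.57, adjusted p = 0.195). The next, Jcr4S00610.110 and Jcr4S05975.20, had adjusted p = 0.559 and 0.576. In root, Jcr4S02683.20 of the same family rose, with 1894 and 953 CPM in moderate drought roots, against 293 and 238 CPM in day 13 control roots (log2 fold change 2.45 ± 0.50 (SE), adjusted p = 0.0488). Jcr4S00065.160 fell, with 18.2 and 43.1 CPM in moderate drought roots, against 157 and 527 CPM in the control (log2 fold change -3.45 ± 0.70 (SE), adjusted p = 0.0487). The 3-ketoacyl synthase Jcr4S09256.10 fell too, to 0.0506 and 0.0158 CPM in moderate drought roots, against 1.06 and 2.09 CPM in day 13 control roots (log2 fold change -5.45 ± 0.70 (SE), adjusted p = 0.0245). Its moderate drought levels are only a few reads, so the size of this fall is uncertain. The libraries of the compared groups do not overlap for these 3 genes, but their calls rest on single libraries. Jcr4S02683.20 lost its call without day 13 control root replicate 1 or 2 or moderate drought root replicate 1 and with a replicate block (adjusted p = 0.0517 to 0.253). Jcr4S00065.160 lost its call without day 13 control root replicate 2 or moderate drought root replicate 1 or 2, with a replicate block and under limma on the RPKM values (adjusted p = 0.0502 to 0.307). Jcr4S09256.10 lost its call without day 13 control root replicate 2 or moderate drought root replicate 1 (adjusted p = 0.103 to 0.108). The count of 3 became 7 without day 13 control root replicate 1, 0 without day 13 control root replicate 2 (17 members at an unadjusted p under 0.05) and 0 without moderate drought root replicate 1 (15 members).

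Severe drought divided the lipid-transfer proteins of leaf, with 4 of 18 higher and 5 lower, or 50% called against 57.1% of all genes. The leaf gene Jcr4S01930.10 reached 4818 and 4790.2 CPM in severe drought leaves, against 2958 and 3668 CPM in day 49/52 control leaves (log2 fold change 0.51 ± 0.18 (SE), adjusted p = 0.0308). These are its highest levels in any of the 22 libraries. Jcr4S04197.20 had 3296 and 3808 CPM in severe drought leaves, against 2265 and 3544 CPM in the control, where the libraries overlap, and did not pass the test. Jcr4S04197.30 had 1988 and 769.9 CPM in severe drought leaves, against 1530.05 and 1415 CPM in the control, so that the severe drought replicates lay on both sides of the control, and it did not pass either. Jcr4S01930.10 lost its call without severe drought leaf replicate 1 or 2 or day 49/52 control leaf replicate 1. It also lost its call in edgeR's fit over all libraries (adjusted p = 0.0833) and under limma on the RPKM values. Under limma its log2 value was 0.00, because its deposited RPKM was 7704.5 with an SD of 0 in both groups. That scale could not show a change in this gene.

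Lipid-transfer genes that are scarce in leaf gave the other rises. Jcr4S01946.20, a root gene in watered plants, had 8.19 and 3.69 CPM in severe drought leaves, against 0.925 and 0.911 CPM in the control (log2 fold change 2.66 ± 0.76 (SE), adjusted p = 0.0123). Jcr4S00610.110 (lipid-transfer isoform 2) had 0.653 and 0.605 CPM in severe drought leaves, against 0.126 and 0.12 CPM in the control (log2 fold change 2.30 ± 0.50 (SE), adjusted p = 0.00265). Both were low in leaf beside their own root levels. Among those that fell, Jcr4S05036.50 had 8.77 and 2.03 CPM in severe drought leaves, against 27.6 and 34.4 CPM in the control (log2 fold change -2.55 ± 0.52 (SE), adjusted p = 0.00211). Jcr4S00353.40 had 24.6 and 28.9 CPM in severe drought leaves, against 52.3 and 69.8 CPM in control leaves (log2 fold change -1.21 ± 0.22 (SE), adjusted p = 0.000746), and its neighbour by identifier, Jcr4S00353.50, had 0.49 and 0.605 CPM in severe drought leaves, against 1.47 and 1.85 CPM in control leaves (log2 fold change -1.62 ± 0.31 (SE), adjusted p = 0.00113). No severe drought library reached a control library in these 3 genes. Jcr4S00207.70 (cotyledon-specific by its description, log2 -1.18) also fell, and Jcr4S10764.20 (1.57) rose, both at low levels (0.432 to 1.56 CPM and 0.144 to 0.7 CPM over the 4 libraries). The DIR1-like gene Jcr4S01233.50, named for an Arabidopsis protein of systemic resistance, had 2 reads over the severe drought leaves and 10 over the control leaves. Jcr4S01946.20 lost its call without severe drought leaf replicate 1 or day 49/52 control leaf replicate 1 or 2 and against the day 13 control (adjusted p = 0.069 to 0.0838). Jcr4S00610.110 lost its call in a fit over all libraries (adjusted p = 0.0976). Jcr4S01233.50 lost its call without severe drought leaf replicate 2 or day 49/52 control leaf replicate 1 or 2, without the filter, with a replicate block, under DESeq2 and under limma on the RPKM values (adjusted p = 0.0508 to 0.292). Jcr4S00207.70 lost its call without severe drought leaf replicate 1 or 2 or day 49/52 control leaf replicate 2, against the day 13 control, with a replicate block, under limma on the RPKM values and in a fit over all libraries (adjusted p = 0.0511 to 0.465). Jcr4S10764.20 lost its call without severe drought leaf replicate 1 or day 49/52 control leaf replicate 1 or 2, against the day 13 control and under DESeq2 (adjusted p = 0.0639 to 0.216).

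In the inhibitor, storage and lipid-transfer family of leaf, 3 of 9 genes rose and 3 fell, or 66.7% called against 57.1% of all genes. The steepest fitted fall in leaf was that of Jcr4S00065.140, to 1.31 and 0.929 CPM in severe drought leaves, against 170.00 and 108 CPM in day 49/52 control leaves (log2 fold change -6.99 ± 0.42 (SE), adjusted p = 4.5e-07). Its neighbour by identifier, Jcr4S00065.160, fell to 1.91 and 1.77 CPM in severe drought leaves, against 22 and 16.8 CPM in the control (log2 fold change -3.42 ± 0.30 (SE), adjusted p = 7.05e-06). Both severe drought libraries stood far below every other leaf library in Jcr4S00065.140, where watered, moderate drought and rewatered leaves ran from 54 to 418 CPM. Jcr4S02683.20 went the other way, with 100.1 and 32.3 CPM in severe drought leaves, against 4.25 and 3.45 CPM in the control (log2 fold change 4.07 ± 0.52 (SE), adjusted p = 0.000112). Jcr4S03548.10 had 57.7 and 63.1 CPM in severe drought leaves, against 24.7 and 25.7 CPM in control leaves (log2 fold change 1.24 ± 0.12 (SE), adjusted p = 1.26e-05), and Jcr4S02945.20 had 129 and 121 CPM in severe drought leaves, against 75.2 and 95.8 CPM in control leaves (log2 fold change 0.52 ± 0.17 (SE), adjusted p = 0.0208). Groups do not overlap in these 5 genes. Jcr4S05975.20 was the third to fall (log2 -1.91). Jcr4S02945.20 lost its call without severe drought leaf replicate 1 or day 49/52 control leaf replicate 1 and in a fit over all libraries (adjusted p = 0.0679 to 0.155). Jcr4S05975.20 lost its call without day 49/52 control leaf replicate 2 (adjusted p = 0.0587).

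Of the 6 tested genes described as 3-ketoacyl synthases in leaf, 4 fell and 1 rose (29.5% of all genes fell and 27.6% rose). Such enzymes set the chain length of very-long-chain fatty acids. The CER6 family gene Jcr4S05705.10 is counted with the eceriferum genes, not among the 6, and did not pass. Jcr4S09256.10 fell to 0.536 and 0.259 CPM in severe drought leaves, against 12.7 and 10.5 CPM in the control (log2 fold change -4.90 ± 0.30 (SE), adjusted p = 4.07e-07). Jcr4S00665.100 fell to 0.886 and 0.346 CPM in severe drought leaves, against 6.29 and 5.75 CPM in control leaves (log2 fold change -3.32 ± 0.38 (SE), adjusted p = 3.89e-05). The synthase 11-like and 4-like genes, Jcr4S00922.60 and Jcr4S00731.30, fell by less, with 74.6 and 83.9 CPM in severe drought leaves against 144 and 129 CPM in the control for the first (log2 fold change -0.81 ± 0.13 (SE), adjusted p = 0.000328) and 8.7 and 7.58 CPM in severe drought leaves against 20.9 and 16.2 CPM in control leaves for the second (log2 fold change -1.21 ± 0.18 (SE), adjusted p = 0.000209). Severe drought libraries were below both control libraries in all 4. The synthase 1 family gene Jcr4S01003.80, of the fatty acid elongase by its description, rose to 70.4 and 136 CPM in severe drought leaves, against 37.9 and 31.4 CPM in control leaves (log2 fold change 1.55 ± 0.26 (SE), adjusted p = 0.00049). These 5 calls held under every alternative that was run. Jcr4S00288.50 had 77.9 and 108 CPM in severe drought leaves, against 71.3 and 68.4 CPM in control leaves, and did not pass. The elongase reductase gene Jcr4S00066.210, which serves all chain lengths, had 86.4 and 84.6 CPM in severe drought leaves, against 96.1 and 91.3 CPM in control leaves, and did not pass either.

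Of the 5 tested eceriferum and wax2 genes of leaf, 2 rose and 2 fell (80% called, against 57.1% of all genes). The wax2-like Jcr4S00059.30 rose to 95.2 and 70.9 CPM in severe drought leaves, against 17.1 and 29.3 CPM in the control (log2 fold change 1.81 ± 0.29 (SE), adjusted p = 0.000438), above all other leaf libraries. The CER2 family gene Jcr4S00284.120 had 12 and 15.8 CPM in severe drought leaves, against 6.37 and 8.05 CPM in control leaves (log2 fold change 0.93 ± 0.27 (SE), adjusted p = 0.0128). The CER6 family gene Jcr4S05705.10 had 286 and 509 CPM in severe drought leaves, against 301 and 272 CPM in the control, where the libraries overlap, and did not pass. The CER1 fragment Jcr4S21390.10 had 1 read over the severe drought leaves and 39 over the control leaves and was called lower. The other CER1-like gene, Jcr4S02290.30, was too scarce to test. CER7-like Jcr4S02573.20 was slightly lower, with 8.42 and 7.84 CPM in severe drought leaves against 11.1 and 10.7 CPM in the control (log2 fold change -0.44 ± 0.14 (SE), adjusted p = 0.0221). Jcr4S00284.120 lost its call without severe drought leaf replicate 2 or day 49/52 control leaf replicate 1 and in a fit over all libraries (adjusted p = 0.0759 to 0.103). Jcr4S21390.10 lost its call against the day 13 control (adjusted p = 0.0582). Jcr4S02573.20 lost its call without severe drought leaf replicate 2 or day 49/52 control leaf replicate 1, against the day 13 control and without the filter (adjusted p = 0.0532 to 0.231).

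Members outside the surface layers moved as well. The peroxisomal thiolase Jcr4S01018.60, of fatty acid breakdown, rose to 447 and 412 CPM in severe drought leaves, against 216 and 204 CPM in the control (log2 fold change 1.01 ± 0.13 (SE), adjusted p = 8.05e-05). Of 5 tested glycolipid transfer genes, Jcr4S11168.20 rose to 3.99 and 4.34 CPM in severe drought leaves, against 0.294 and 1.17 CPM in control leaves (log2 fold change 2.49 ± 0.49 (SE), adjusted p = 0.00147), and Jcr4S02256.40 fell to 33.6 and 20.4 CPM in severe drought leaves, against 73.7 and 72.4 CPM in control leaves (log2 fold change -1.46 ± 0.20 (SE), adjusted p = 0.000126). Groups do not overlap in any of these. The thiolase Jcr4S15816.20 had 2.82 and 3.0 CPM in severe drought leaves, against 3.34 and 4.05 CPM in control leaves, and did not pass. Cell type markers moved in the same leaves: protodermal factor 2 had 70.1 and 53.3 CPM in severe drought leaves, against 108 and 117 CPM in the control, and 24 of 27 tested genes of dividing cells fell (their summed level was 3240 to 3273 CPM in severe drought leaves, against 4996 to 7580 CPM in the control). Of 20 tested xylem genes 4 rose and 8 fell (sums of 522 to 603 CPM in severe drought leaves, against 1044 to 1453 CPM in the control). Photosynthesis genes summed to 5220 to 5794 CPM in severe drought leaves and 6024 to 9644 CPM in the control, with 2 of 30 higher and 8 lower. The part of these shifts in the changes above was not tested.

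In root, severe drought raised 6 of 17 tested lipid-transfer genes and lowered 2 (47.1% called, against 45.1% of all genes), and the rises included all 3 genes that dominate leaf. Jcr4S01930.10 rose to 161 and 169 CPM in severe drought roots, against 13.8 and 11.4 CPM in day 49/52 control roots (log2 fold change 3.66 ± 0.31 (SE), adjusted p = 0.000181). Jcr4S04197.30 rose to 234 and 218 CPM in severe drought roots, against 7.04 and 9.18 CPM in control roots (log2 fold change 4.75 ± 0.50 (SE), adjusted p = 0.00038). Jcr4S04197.20 had 14.9 and 16.1 CPM in severe drought roots, against 4.41 and 5.41 CPM in control roots (log2 fold change 1.61 ± 0.46 (SE), adjusted p = 0.0239). Severe drought roots were above every other root library in all 3, yet Jcr4S01930.10 remained far under its leaf level. The 3 genes together took 11.6% and 11.4% of the CPM of the 64 genes in severe drought roots, against 0.724% and 0.654% in the control. Summed photosynthesis genes were 97.2 to 114 CPM in severe drought roots, against 54.6 to 65.1 CPM in the control and 84.1 to 127 CPM in day 13 control roots, and protodermal factor 2 stayed under 1 CPM in all root libraries. Of the markers in severe drought roots, 19 of 25 tested xylem genes fell and 1 rose (sums of 885 to 1048 CPM in severe drought roots and 2189 to 3050 CPM in the control), and 10 of 26 tested genes of dividing cells fell and 2 rose (3162 to 3565 CPM in severe drought roots and 1547 to 1565 CPM in the control). The part of these shifts in the root results was not tested. Jcr4S04197.20 lost its call without any 1 of the 4 libraries compared (adjusted p = 0.0632 to 0.128).

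The largest rise was that of Jcr4S00610.110, which had 319.9 and 495 CPM in severe drought roots, against 1.18 and 3.34 CPM in the day 49/52 control (log2 fold change 7.46 ± 1.06 (SE), adjusted p = 0.00135). Roots of day 13 held 0.615 to 4.78 CPM, so that only severe drought and rewatered roots passed 5 CPM. Its neighbour by identifier, Jcr4S00610.90, had 26.4 and 26.8 CPM in severe drought roots, against 12 and 12.1 CPM in control roots (log2 fold change 1.09 ± 0.20 (SE), adjusted p = 0.00396), but 32.6 and 22.4 CPM in day 13 control roots. Jcr4S05036.50 fell to 3.93 and 3.43 CPM in severe drought roots, against 73.9 and 85.9 CPM in control roots (log2 fold change -4.49 ± 0.63 (SE), adjusted p = 0.00128), while day 13 control roots had 4.44 and 7.0 CPM. Jcr4S01946.20, first among the members by RPKM in day 49/52 control roots but not in other root groups, did not pass the test. It had 414 and 702 CPM in severe drought roots, against 1074 and 1243 CPM in control roots, with no overlap. The other rise was that of Jcr4S04027.30 (log2 2.65) and the other fall that of Jcr4S14119.10 (-1.90). Jcr4S00610.90 lost its call against the day 13 control (where its log2 value was -0.08) (adjusted p = 0.75). Jcr4S05036.50 lost its call against the day 13 control (adjusted p = 0.351). Jcr4S04027.30 lost its call without any 1 of the 4 libraries compared (adjusted p = 0.0623 to 0.183). Jcr4S14119.10 lost its call without any 1 of the 4 libraries compared, against the day 13 control, without the filter and under DESeq2 (adjusted p = 0.053 to 0.146).

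**Figure D3:**
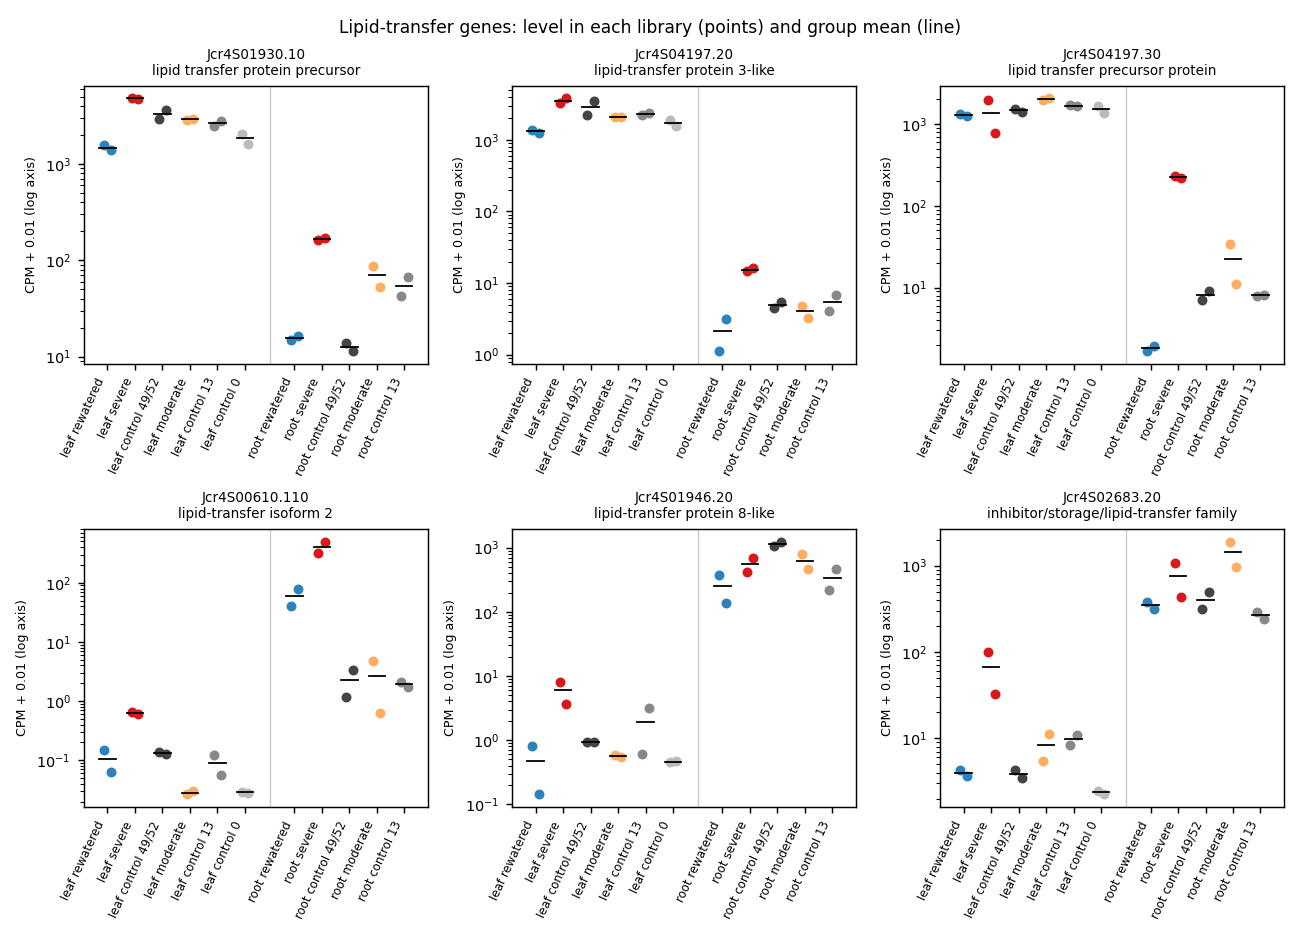
CPM (plus 0.01, log axis) of 5 lipid-transfer genes and Jcr4S02683.20 in each library. Points are libraries, the line is the mean of 2, and leaf groups stand left of root groups. Jcr4S01930.10, Jcr4S04197.20 and Jcr4S04197.30 are at 769.9 CPM or more in every leaf library and highest among roots in severe drought, and Jcr4S00610.110 is at 320 and 495 CPM in severe drought roots.

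Of the inhibitor, storage and lipid-transfer family in root, 0 of 13 rose and 6 fell under severe drought (46.2% called, against 45.1% of all genes), and 3 of the 6 carry the Jcr4S00065 stem. Jcr4S00065.70 fell to 0.491 and 0.343 CPM in severe drought roots, against 32.4 and 10.6 CPM in day 49/52 control roots (log2 fold change -5.73 ± 0.69 (SE), adjusted p = 0.000678). Jcr4S00065.100 had 0.129 and 0.857 CPM in severe drought roots, against 23.6 and 1.08 CPM in control roots (log2 fold change -4.67 ± 1.49 (SE), adjusted p = 0.0354). Jcr4S00065.90 had 2 reads over the severe drought roots and 451 over the control. Levels were under 1 CPM in severe drought roots, and in Jcr4S00065.100 and Jcr4S00065.90 the control replicates themselves differed widely, with 7.92 and 0.606 CPM for the second. Jcr4S00065.90 lost its call without severe drought root replicate 1 or 2 or day 49/52 control root replicate 1 and under limma on the RPKM values (adjusted p = 0.0685 to 0.124). Jcr4S00065.100 lost its call without severe drought root replicate 1 or 2 or day 49/52 control root replicate 1, with a replicate block and under limma on the RPKM values (adjusted p = 0.0531 to 0.467).

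The watered roots of the 2 times also differed in these genes. Day 13 control roots held 136 and 128 CPM of Jcr4S00065.70, 100.04 and 164 CPM of Jcr4S00065.90 and 251 and 273 CPM of Jcr4S00065.100. All 5 genes of the stem were lower in day 49/52 than in day 13 control roots, with log2 fold changes of -2.60 (Jcr4S00065.70), -4.92 (Jcr4S00065.90), -4.39 (Jcr4S00065.100), -4.57 (Jcr4S00065.140) and -3.96 (Jcr4S00065.160). The 5 together had 34.5 and 33.1 CPM in severe drought roots, 162 and 381 CPM in moderate drought roots, 121 and 41.1 CPM in day 49/52 control roots and 906 and 1858 CPM in day 13 control roots. Jcr4S00065.140 itself had 17.8 and 18.3 CPM in severe drought roots, against 26.8 and 15.8 CPM in the day 49/52 control, and did not pass the test there. Jcr4S00065.70 lost its call without day 49/52 control root replicate 2 (adjusted p = 0.0553). Jcr4S00065.90 lost its call without day 13 control root replicate 2 or day 49/52 control root replicate 2 (adjusted p = 0.0567 to 0.0569). Jcr4S00065.100 lost its call without day 13 control root replicate 1 or 2 or day 49/52 control root replicate 2 and with a replicate block (adjusted p = 0.0699 to 0.0982). Jcr4S00065.160 lost its call without day 49/52 control root replicate 2 (adjusted p = 0.0625).

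Genes of the Casparian strip, the sealing band of the root endodermis, were low in the same severe drought and later control roots. Casparian strip membrane protein 5 (Jcr4S00324.50) had 0.103 and 0.049 CPM in severe drought roots, 5.06 and 1.5 CPM in day 49/52 control roots and 28.5 and 43.0 CPM in day 13 control roots, and a second such gene (Jcr4S03748.80) had 0.258 and 0.49 CPM, 5.88 and 1.17 CPM, and 29.3 and 40.6 CPM in the same groups. Moderate drought roots had 28.3 and 43.1 CPM of Jcr4S00324.50 and 21.5 and 32 CPM of Jcr4S03748.80, beside the Jcr4S00065 levels given above. The list of 6 endodermis and root hair genes, 3 of which are root hair defective 3 genes that leaf also expresses, summed to 272 to 289 CPM in severe drought roots and 276 to 280 CPM in the day 49/52 control, with 2 of its 6 tested genes higher and 3 lower. Whether the tips differed in their share of endodermis was not tested.

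**Figure D4:**
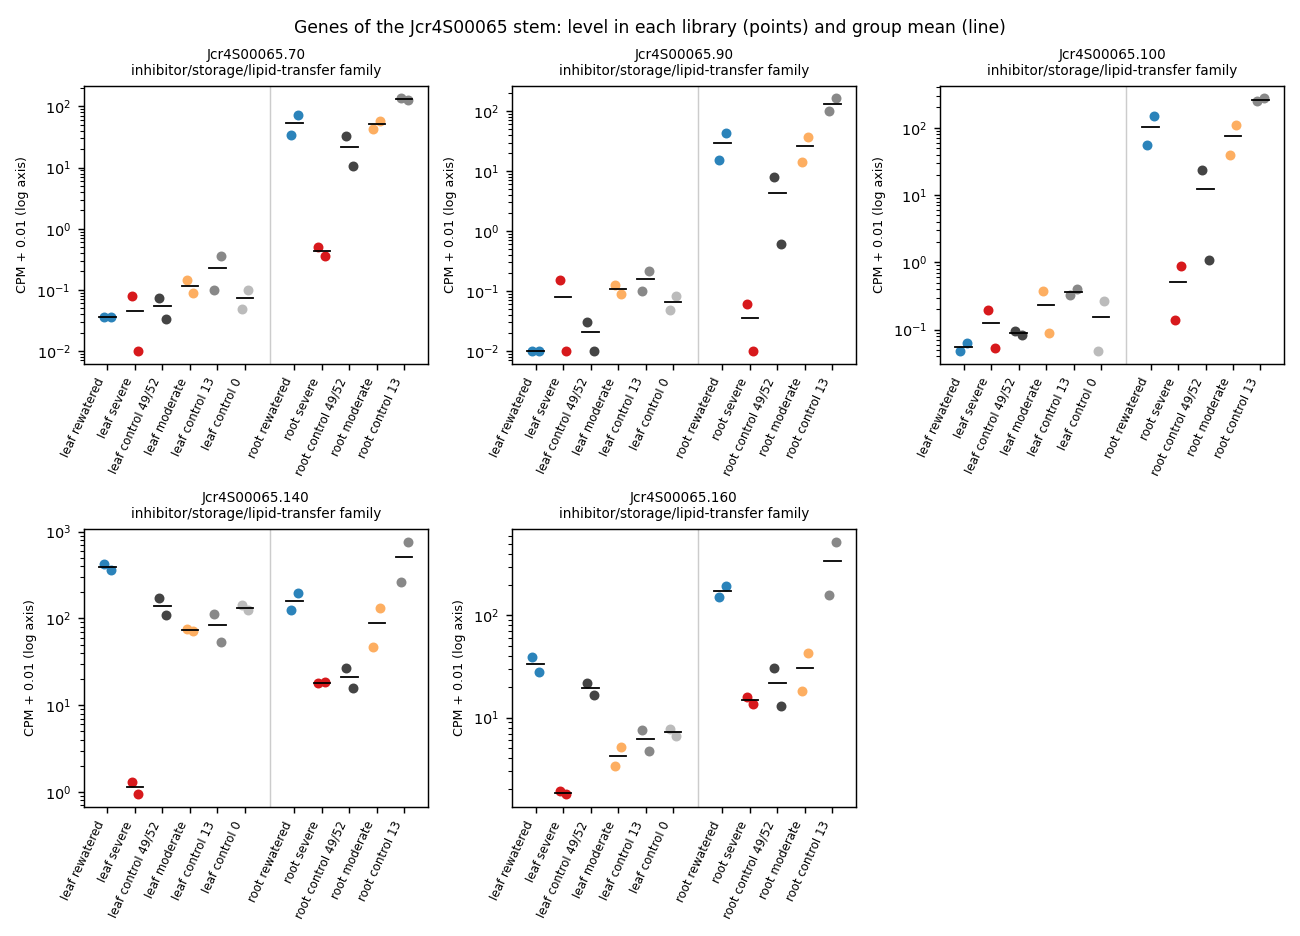
CPM (plus 0.01, log axis) of the 5 genes of the Jcr4S00065 stem in each library. Points are libraries and the line is the mean of 2, with leaf groups left of root groups. Jcr4S00065.140 drops only in severe drought leaves among leaf groups, at 1.31 and 0.929 CPM, while Jcr4S00065.70, Jcr4S00065.90 and Jcr4S00065.100 stay under 1 CPM in all leaf libraries and fall to under 1 CPM in severe drought roots.

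Other family members fell in root. Jcr4S06273.20 had 2.07 and 2.43 CPM in severe drought roots, against 36.9 and 34.5 CPM in the control (log2 fold change -4.04 ± 0.43 (SE), adjusted p = 0.000399). Jcr4S02891.20 had 0 reads in both severe drought roots and 33 in the control roots, at least 4.53-fold lower when each severe drought library is set to 3 reads. Jcr4S02683.20 had 1070.2 and 429 CPM in severe drought roots, against 314 and 493 CPM in control roots, an overlap, and did not pass. The sixth fall was that of Jcr4S08435.40 (log2 -1.18). Jcr4S08435.40 lost its call without severe drought root replicate 1 or day 49/52 control root replicate 1 or 2, without the filter, under limma on the RPKM values and in a fit over all libraries (adjusted p = 0.0511 to 0.107).

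Of 6 genes described as 3-ketoacyl synthases in root, 5 fell and 0 rose under severe drought (25.6% of all genes fell and 19.5% rose). The CER6 family gene is not among the 6. Jcr4S00665.100 fell to 0.749 and 1.08 CPM in severe drought roots, against 3.45 and 4.53 CPM in the control (log2 fold change -2.17 ± 0.29 (SE), adjusted p = 0.000982), though day 13 control roots had 1.08 and 1.4 CPM. Jcr4S00922.60 fell to 30.8 and 26.8 CPM in severe drought roots, against 65.8 and 56 CPM in control roots (log2 fold change -1.13 ± 0.26 (SE), adjusted p = 0.0101), and day 13 control roots had 189.7 and 287 CPM. The other falls had log2 values of -1.07 (Jcr4S00288.50), -0.92 (Jcr4S01003.80) and -0.65 (Jcr4S00731.30). Groups do not overlap in the first 2 genes. The wax2-like Jcr4S00059.30 was the eceriferum or wax2 gene that rose, with 1.5 and 2.28 CPM in severe drought roots, against 0.205 and 0.179 CPM in control roots (log2 fold change 3.23 ± 0.74 (SE), adjusted p = 0.00999), still far under leaf. CER6 family Jcr4S05705.10 had 94.7 and 281 CPM in severe drought roots, against 383 and 522 CPM in the control, and CER2 family Jcr4S00284.120 had 15.4 and 24.6 CPM in severe drought roots, against 16.4 and 23.6 CPM in control roots, and neither passed. Against the day 13 control, Jcr4S00284.120 was higher in severe drought roots (log2 3.29, adjusted p = 0.00306). Jcr4S00665.100 lost its call against the day 13 control (adjusted p = 0.202). Jcr4S00922.60 lost its call without severe drought root replicate 2 or day 49/52 control root replicate 1 (adjusted p = 0.0578 to 0.0679). Jcr4S00288.50 lost its call without severe drought root replicate 1 or day 49/52 control root replicate 1 or 2 and against the day 13 control (adjusted p = 0.0643 to 0.621). Jcr4S01003.80 lost its call without severe drought root replicate 1 or day 49/52 control root replicate 1 or 2 and against the day 13 control (adjusted p = 0.0784 to 0.162). Jcr4S00731.30 lost its call without severe drought root replicate 1 or day 49/52 control root replicate 1 or 2 (adjusted p = 0.0977 to 0.235). Jcr4S00059.30 lost its call without severe drought root replicate 2 or day 49/52 control root replicate 1 or 2 (adjusted p = 0.0503 to 0.0667).

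The reductase and 1 thiolase also fell in severe drought roots, Jcr4S00066.210 with 62.6 and 82.4 CPM in severe drought roots, against 101 and 117 CPM in the control (log2 fold change -0.64 ± 0.20 (SE), adjusted p = 0.0304), and Jcr4S15816.20 with 18.5 and 12.4 CPM in severe drought roots, against 37.7 and 38.7 CPM in control roots (log2 fold change -1.35 ± 0.39 (SE), adjusted p = 0.0252). The groups do not overlap in either gene. Of the glycolipid transfer genes 4 of 5 fell (25.6% of all genes did), led by Jcr4S11168.20 with 2.48 and 1.96 CPM in severe drought roots, against 8.79 and 12.7 CPM in control roots (log2 fold change -2.32 ± 0.43 (SE), adjusted p = 0.00393), while the other 3 had log2 values of -0.54 (Jcr4S02256.40), -0.38 (Jcr4S07598.30) and -0.38 (Jcr4S07598.40). Jcr4S00066.210 lost its call without severe drought root replicate 1 or day 49/52 control root replicate 1 or 2 (adjusted p = 0.0635 to 0.232). Jcr4S15816.20 lost its call without any 1 of the 4 libraries compared and against the day 13 control (adjusted p = 0.0541 to 0.141). Jcr4S02256.40 lost its call without any 1 of the 4 libraries compared, without the filter, with a stricter filter, with a replicate block and in a fit over all libraries (adjusted p = 0.0527 to 0.257). Jcr4S07598.30 lost its call without any 1 of the 4 libraries compared, against the day 13 control, without the filter, with a replicate block and in a fit over all libraries (adjusted p = 0.0646 to 0.451). Jcr4S07598.40 lost its call without any 1 of the 4 libraries compared, against the day 13 control, without the filter, with a replicate block and in a fit over all libraries (adjusted p = 0.0577 to 0.398).

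Tested as a difference, the severe drought effect in leaf exceeded that in root in 11 of 54 genes and fell short of it in 10, against 35.7% called over all genes (17.1% higher, 18.6% lower). Of 40 genes tested in both organs, 3 rose in both (Jcr4S00059.30, Jcr4S00610.110 and Jcr4S01930.10), 5 fell in both (the synthases Jcr4S00665.100, Jcr4S00731.30 and Jcr4S00922.60, the lipid-transfer gene Jcr4S05036.50 and the glycolipid transfer gene Jcr4S02256.40), 2 rose in leaf and fell in root, and 0 did the reverse. The 2 were the synthase Jcr4S01003.80 (leaf minus root log2 2.45, adjusted p = 0.000367) and the glycolipid transfer gene Jcr4S11168.20 (4.79, adjusted p = 7.98e-05). Both differences held under every alternative run, but the root fall of Jcr4S01003.80 alone did not, as given above. Joint counts were not made over all genes, of which 57.1% were called in leaf and 45.1% in root. They describe these members and do not set them apart. Of those that rose in both organs, Jcr4S01930.10 rose by less in leaf (difference -3.17, adjusted p = 9.3e-06), as did Jcr4S00610.110 (-5.18, adjusted p = 0.0274). Jcr4S01930.10 lost its call with the day 13 controls (adjusted p = 0.118). Jcr4S00610.110 lost its call without severe drought leaf replicate 2 or day 49/52 control leaf replicate 1 or 2 and with the day 13 controls (adjusted p = 0.0614 to 0.143).

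**Figure D5:**
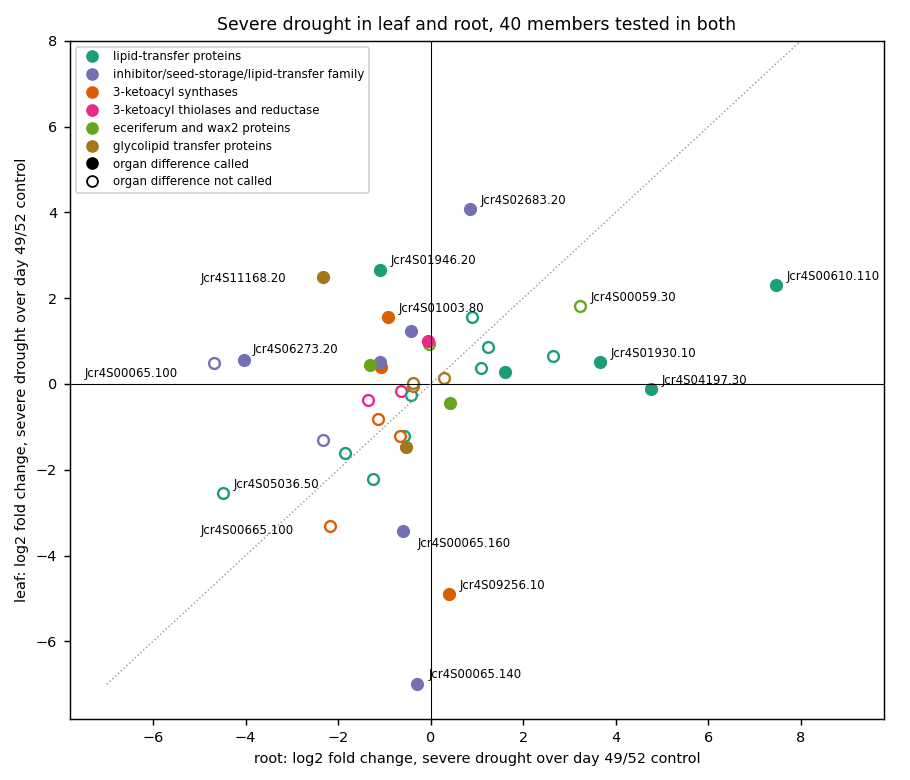
Log2 fold change of severe drought over day 49/52 control in leaf (vertical axis) and root (horizontal axis) for the 40 genes tested in both, coloured by class. Filled points differ between the organs in the test of the difference, and the dotted line marks equal change. Jcr4S00065.140 lies lowest, at -6.99 in leaf, and Jcr4S00610.110 lies farthest right, at 7.46 in root.

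After rewatering, leaf levels of several genes that fell in severe drought were higher again. Jcr4S00065.140 reached 418 and 364 CPM in rewatered leaves, against 1.31 and 0.929 CPM in severe drought leaves (log2 fold change 8.50 ± 0.44 (SE), adjusted p = 1.41e-07), and Jcr4S00065.160 reached 39.2 and 28.2 CPM in rewatered leaves, against 1.91 and 1.77 CPM in severe drought leaves (log2 fold change 4.23 ± 0.31 (SE), adjusted p = 1.79e-06). The synthase Jcr4S09256.10 reached 18 and 19.8 CPM in rewatered leaves, against 0.536 and 0.259 CPM in severe drought leaves (log2 fold change 5.62 ± 0.30 (SE), adjusted p = 1.46e-07), and Jcr4S00665.100 reached 5.74 and 6.62 CPM in rewatered leaves, against 0.886 and 0.346 CPM in severe drought leaves (log2 fold change 3.38 ± 0.38 (SE), adjusted p = 3.18e-05). In all 4 genes the groups were far apart. Jcr4S02256.40 (log2 1.54), Jcr4S00731.30 (1.34) and Jcr4S00922.60 (0.81) rose as well, and all 7 rises held under every alternative. Of the 6 synthases 4 were higher and 2 lower in rewatered than in severe drought leaves (29.1% of all genes were higher and 30.2% lower). Of the 2 lower, Jcr4S00288.50 lost its call without severe drought leaf replicate 2 or rewatered leaf replicate 1 or 2, with a replicate block and in a fit over all libraries (adjusted p = 0.0544 to 0.268). Cell type markers moved in the same comparison: 25 of 27 tested genes of dividing cells were higher and 2 lower (sums of 3923 to 4532 CPM in rewatered leaves, against 3240 to 3273 CPM in severe drought leaves). Protodermal factor 2 was higher, at 121 to 127 CPM in rewatered leaves, against 53.3 to 70.1 CPM in severe drought leaves. Of 20 xylem genes 9 were higher and 7 lower (1220 to 1232 CPM in rewatered leaves, against 522 to 603 CPM in severe drought leaves). Their part in the rewatering results of leaf was not tested.

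Several genes that rose in severe drought leaves were lower after rewatering, as was the CER6 family gene, which had not passed in severe drought. Jcr4S02683.20 had 4.23 and 3.64 CPM in rewatered leaves, against 100.1 and 32.3 CPM in severe drought leaves (log2 fold change -4.02 ± 0.52 (SE), adjusted p = 0.000108). Wax2-like Jcr4S00059.30 had 18 and 15.3 CPM in rewatered leaves, against 95.2 and 70.9 CPM in severe drought leaves (log2 fold change -2.27 ± 0.30 (SE), adjusted p = 0.000101), and CER6 family Jcr4S05705.10 had 201 and 178 CPM in rewatered leaves, against 286 and 509 CPM in severe drought leaves (log2 fold change -1.03 ± 0.23 (SE), adjusted p = 0.00262). Rewatered libraries were under both severe drought libraries in each. The comparisons of severe drought with control and of rewatering with severe drought share the severe drought libraries, so their signs are not independent. Other falls that held under every alternative were those of Jcr4S11168.20 (log2 -3.62), Jcr4S01946.20 (-3.50), Jcr4S00610.90 (-2.06), CER2 family Jcr4S00284.120 (-2.02), Jcr4S03548.10 (-1.93) and the synthase Jcr4S01003.80 (-1.73).

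Some rewatered levels also differed from the day 49/52 control. Jcr4S01930.10 had 1560.4 and 1394 CPM in rewatered leaves, against 2958 and 3668 CPM in control leaves (log2 fold change -1.15 ± 0.18 (SE), adjusted p = 0.00991), and Jcr4S04197.20 had 1382 and 1246 CPM in rewatered leaves, against 2265 and 3544 CPM in control leaves (log2 fold change -1.12 ± 0.22 (SE), adjusted p = 0.021). Both were lower than in every other leaf group. Jcr4S00353.40 (log2 -1.23), Jcr4S03548.10 (-0.69) and the CER1 fragment Jcr4S21390.10 (-2.82) were lower too, and Jcr4S00065.140 was higher (1.51). These calls are fragile: the 6 became 0 without rewatered leaf replicate 1 or replicate 2, 1 without day 49/52 control replicate 2 and 15 without day 49/52 control replicate 1, and those 2 zeros stand beside 15 and 16 members at an unadjusted p under 0.05. DESeq2 called 13.

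In root the family of inhibitors, storage and lipid-transfer proteins held 10 of the 21 rises after rewatering, with 10 of 13 tested genes higher and 0 lower than in severe drought (27.4% of all genes were higher and 22% lower). Jcr4S00065.70 had 33.5 and 72.1 CPM in rewatered roots, against 0.491 and 0.343 CPM in severe drought roots (log2 fold change 7.06 ± 0.72 (SE), adjusted p = 0.000248), and Jcr4S00065.100 had 55 and 151 CPM in rewatered roots, against 0.129 and 0.857 CPM in severe drought roots (log2 fold change 7.76 ± 1.64 (SE), adjusted p = 0.00597). Jcr4S00065.90 had 2981 reads over the rewatered roots, against 2 over the severe drought roots. The Casparian strip gene Jcr4S00324.50 had 31.0 and 52.1 CPM in rewatered roots, and Jcr4S03748.80 had 32.3 and 44 CPM, beside the severe drought values given above. Synthase Jcr4S00922.60 had 203 and 169 CPM in rewatered roots, against 30.8 and 26.8 CPM in severe drought roots (log2 fold change 2.77 ± 0.27 (SE), adjusted p = 0.000215). The leaf-type genes fell, Jcr4S04197.30 to 1.67 and 1.92 CPM in rewatered roots, against 234 and 218 CPM in severe drought roots (log2 fold change -6.89 ± 0.56 (SE), adjusted p = 0.000108), and Jcr4S01930.10 to 14.7 and 16.2 CPM in rewatered roots, against 161 and 169 CPM in severe drought roots (log2 fold change -3.34 ± 0.31 (SE), adjusted p = 0.00017). Jcr4S00610.110 was lower but still raised, with 40.8 and 78.2 CPM in rewatered roots, against 319.9 and 495 CPM in severe drought roots (log2 fold change -2.70 ± 0.84 (SE), adjusted p = 0.0301). Further changes that held under every alternative were the falls of Jcr4S20386.10 (log2 -4.60), wax2-like Jcr4S00059.30 (-3.80), CER2 family Jcr4S00284.120 (-2.78) and Jcr4S04197.20 (-2.77), and the rises of Jcr4S00065.160 (3.64), Jcr4S00065.140 (3.23), Jcr4S06273.20 (2.73) and Jcr4S11168.20 (2.42). Jcr4S00610.110 lost its call without any 1 of the 4 libraries compared (adjusted p = 0.0557 to 0.139). Markers moved in the same roots: 18 of 26 genes of dividing cells were higher and 2 lower (though they summed to 1506 to 1941 CPM in rewatered roots, against 3162 to 3565 CPM in severe drought roots), 9 of 25 xylem genes were higher and 1 lower (723 to 1024 CPM in rewatered roots, against 885 to 1048 CPM in severe drought roots), 1 of 24 photosynthesis genes was higher and 14 lower (60.1 to 64.4 CPM in rewatered roots, against 97.2 to 114 CPM in severe drought roots), and 4 of 6 endodermis and root hair genes were higher and 2 lower. Whether they account for any root change after rewatering was not tested.

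Against the day 49/52 control, rewatered roots were higher in Jcr4S00610.110 (log2 fold change 4.76 ± 0.94 (SE), adjusted p = 0.0194), in Jcr4S00065.140 (log2 2.94), in Jcr4S00065.160 (3.04), in the synthase Jcr4S00922.60 (1.64) and in Jcr4S03548.10 (0.91). CER6 family Jcr4S05705.10 was lower, with 101 and 69.3 CPM in rewatered roots, against 383 and 522 CPM in control roots (log2 fold change -2.38 ± 0.49 (SE), adjusted p = 0.0212), as was CER2 family Jcr4S00284.120, with 3.95 and 1.6 CPM in rewatered roots, against 16.4 and 23.6 CPM in control roots (log2 fold change -2.83 ± 0.61 (SE), adjusted p = 0.023). Jcr4S01946.20 had 374 and 139 CPM in rewatered roots, against 1074 and 1243 CPM in control roots (log2 fold change -2.14 ± 0.57 (SE), adjusted p = 0.0404). Also lower were Jcr4S20386.10 (log2 -3.36), Jcr4S05036.50 (-2.22), Jcr4S04197.30 (-2.14) and the synthases Jcr4S00665.100 (-1.30) and Jcr4S00288.50 (-1.21). Against day 13 control roots edgeR called 0 of 48 members, with 17 at an unadjusted p under 0.05, and 8 of the 13 called genes had the other sign. The share over all genes was not counted in that comparison, so this count describes these members and does not set them apart. Jcr4S00610.110 (log2 4.99, adjusted p = 0.0837) and Jcr4S04197.30 (-2.11, adjusted p = 0.1) had nearly the same fold change there without passing. Day 13 control roots had 79.2 and 80.3 CPM of Jcr4S05705.10 and 1.21 and 2.84 CPM of Jcr4S00284.120, close to rewatered roots. The 13 calls became 4, 0, 8 and 1 without control replicate 1, control replicate 2, rewatered replicate 1 and rewatered replicate 2, in that order, and the zero stands beside 16 members at an unadjusted p under 0.05.

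Watered roots of the 2 times differed in many of these genes, and watered leaves hardly did. Day 49/52 control leaves differed from day 13 control leaves in 1 of 46 members, against 0.513% of all genes (0.25% higher, 0.263% lower). It was Jcr4S00065.160, with 22 and 16.8 CPM in the later leaves, against 7.62 and 4.77 CPM in the earlier ones (log2 fold change 1.66 ± 0.28 (SE), adjusted p = 0.0401). Jcr4S00065.160 lost its call without day 13 control leaf replicate 2 or day 49/52 control leaf replicate 2, with a replicate block and in a fit over all libraries (adjusted p = 0.0582 to 0.174). Day 49/52 control roots differed from day 13 control roots in 23 of 48 members (8 higher, 15 lower), against 30.9% (15.6% higher, 15.3% lower). CER6 family Jcr4S05705.10 was higher, with 383 and 522 CPM in the later roots, against 79.2 and 80.3 CPM in the earlier ones (log2 fold change 2.52 ± 0.49 (SE), adjusted p = 0.0102), and CER2 family Jcr4S00284.120 also (3.34). Jcr4S05036.50 was higher (3.83) and Jcr4S01930.10 lower (-2.09). Jcr4S04040.20 (4.81), Jcr4S20386.10 (3.76), Jcr4S01946.20 (1.78), the synthase Jcr4S00665.100 (1.70) and Jcr4S06273.20 (1.37) were higher, and the synthases Jcr4S09256.10 (-4.19) and Jcr4S00922.60 (-1.95) and the lipid-transfer gene Jcr4S00353.50 (-1.80) were lower. Jcr4S05351.80 was called lower, with 3 reads over the later roots and 63 over the earlier ones. Jcr4S05705.10 lost its call without day 13 control root replicate 2 or day 49/52 control root replicate 2 (adjusted p = 0.0575 to 0.0604). Jcr4S00284.120 lost its call without day 49/52 control root replicate 2 (adjusted p = 0.0524). Jcr4S04040.20 lost its call without day 13 control root replicate 2 or day 49/52 control root replicate 1 (adjusted p = 0.0939 to 0.103). Without any 1 of the 4 libraries compared, calls were lost in Jcr4S20386.10 (also under limma, adjusted p = 0.0556 to 0.0745), Jcr4S01946.20 (also with a replicate block, 0.0618 to 0.163) and Jcr4S00353.50 (0.057 to 0.202). Without day 49/52 control root replicate 2 the call of Jcr4S00665.100 was lost (adjusted p = 0.0538), as were those of Jcr4S06273.20 (also without replicate 1, 0.106 to 0.113) and Jcr4S05351.80 (also without replicate 1, without day 13 control root replicate 2 and under limma, 0.0833 to 0.119). The 23 became 12, 13 and 6 without day 13 control replicate 2, day 49/52 control replicate 1 and day 49/52 control replicate 2, in that order. Markers differed between the same roots: of 26 genes of dividing cells 1 was higher and 16 lower (sums of 1547 to 1565 CPM in the later roots, against 1605 to 2020 CPM in the earlier ones), of 25 xylem genes 5 were higher and 2 lower (2189 to 3050 CPM in the later roots, against 813 to 1227 CPM in the earlier ones), and 4 of 24 photosynthesis genes were lower. Their part in the differences between watered roots was not tested.

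Other genes of cutin, wax and suberin formation, listed by description, also went both ways. Without GDSL lipases the list held 45 genes, of which 3 are dienoyl reductases of fatty acid breakdown that the words caught. In severe drought leaves 8 of 32 tested rose and 11 fell (59.4%, median log2 fold change -0.26), against 57.1% of all genes (median 0.03). Suberin-type P450 86A1-like Jcr4S00166.120 averaged 5.5 ± 1.09 CPM in severe drought leaves and 0.531 ± 0.141 CPM in the control (SD, n = 2 each, log2 3.33). Glycerol-3-phosphate acyltransferase 3-like Jcr4S08802.60 averaged 23.3 ± 3.26 CPM in severe drought leaves and 2.65 ± 0.00863 CPM in the control (log2 3.11), and Jcr4S00121.160, of the same description, 34.7 ± 9.89 CPM and 4.21 ± 0.433 CPM (log2 3.02). These 3 rose, whereas long-chain acyl-CoA synthetase 2 (Jcr4S00733.40), which activates cutin precursors in Arabidopsis, fell to 23 ± 4.43 CPM in severe drought leaves, against 54.1 ± 5.84 CPM in the control (log2 -1.26).

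P450 86B1 genes were divided within one name: Jcr4S06490.10 rose (log2 2.63) and Jcr4S04456.10 fell (log2 -8.01) in severe drought leaves. In severe drought roots 5 of 31 tested genes of the list rose and 10 fell (48.4%, median log2 fold change -0.53), against 45.1% of all genes (median -0.04). Glycerol-3-phosphate acyltransferase 6 (Jcr4S03642.60), a cutin enzyme in Arabidopsis, averaged 0.264 ± 0.00782 CPM in severe drought roots and 164 ± 62.5 CPM in the control (SD, n = 2 each, log2 -9.31, adjusted p = 0.00813). Jcr4S00733.40 fell in root as well, to 26 ± 15.8 CPM in severe drought roots, against 91.1 ± 12.3 CPM (log2 -1.86), as did the hothead-like gene Jcr4S04115.110, with 1.38 ± 0.0522 CPM in severe drought roots and 8.77 ± 1.11 CPM in the control (log2 -2.71). P450 86B1 Jcr4S06490.10 rose in root too (log2 4.21). Jcr4S03642.60 lost its call without severe drought root replicate 1 or 2 and against the day 13 control (adjusted p = 0.0649 to 0.154). Jcr4S00733.40 lost its call without severe drought root replicate 1 or day 49/52 control root replicate 2 (adjusted p = 0.0572 to 0.0591). The 15 calls became 5 and 11 without severe drought root replicate 1 and replicate 2, and 8 and 7 without control root replicate 1 and replicate 2, in that order.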

How the data were processed

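RNA from 22 libraries was sequenced with single-end 50 bp reads from a kit that does not mark strand, per the labels' protocols. The authors deposited read counts per gene model, with a description of each gene, and a table of RPKM values. Read alignment, counting, reference build and handling of multiply matching reads: not given in the sources used here. Deposited RPKM values start at 1.0 and their sorted columns differ by at most 0.7 between libraries, so they served for ranks and for 1 alternative test.

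Counts were analysed with edgeR 4.0.16 in R 4.3.3: low-count filter (filterByExpr), TMM scaling, and robust quasi-likelihood tests with Benjamini-Hochberg adjustment over all genes tested, with separate fits for leaf (12 libraries, 23200 genes) and root (10 libraries, 24924 genes) and a joint fit (22 libraries, 25939 genes) for differences between organs. The code was tested on simulated data. CPM were scaled in the fit over 22 libraries, and SE is that of the log2 fold change. Genes with 0 to 3 reads in a group are given as reads or bounds. Exceptions are the fitted organ differences of Jcr4S02891.20 and Jcr4S21390.10, given below beside their reads. Members and lists were chosen with earlier results of these data known. The text names, per comparison, up to 10 called members in each direction by size of change, and the 3 smallest p where none was called. The 3 members of each class with the most reads, and members of small classes, are given in at least 1 comparison. For rewatering against severe drought and for organ differences, only those whose calls held under all alternatives are given beyond the first described. Alternatives were DESeq2 1.42.0, limma 3.58.1 on log2(RPKM + 1), RLE scaling, no filter and a stricter filter, a replicate block, another control, another set of libraries in the fit, and each library left out in turn. A leave-out leaves 1 library in a group, which is assumed to vary like the other groups. Leaves of a second accession named in the series were not analysed here.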

Additional observations from a re-analysis of the deposited data

Results flagged for a closer look

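The effect of severe drought differed between leaf and root in 21 of 54 tested genes, by edgeR's test of the leaf minus root difference in log2 fold change (adjusted p under 0.05), where 35.7% of all genes did. Of these 21 calls, 7 held under every alternative. In them the difference was 4.79 for the glycolipid transfer gene Jcr4S11168.20, 4.56 for Jcr4S06273.20, 2.45 for the synthase Jcr4S01003.80, 1.64 for Jcr4S03548.10, 1.58 for Jcr4S02945.20, 1.04 for the peroxisomal thiolase Jcr4S01018.60 and -4.89 for the lipid-transfer gene Jcr4S04197.30.

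The difference was positive, with at least 1 alternative ending the call, in Jcr4S01946.20 (3.74), Jcr4S02683.20 (3.21), Jcr4S05705.10 (1.74) and Jcr4S00288.50 (1.44). Jcr4S02891.20 had a fitted difference of 10.39, which rests on 0 reads in severe drought roots and depends on the prior count. It had reads in 10 of the 22 libraries and 1 read over the day 13 control leaves, so its leaf effect is uncertain too. Jcr4S21390.10 had a fitted difference of -5.82. That rests on 1 read over the severe drought leaves, on 3 and 2 reads over the severe drought and day 49/52 control roots, and likewise on the prior count. The difference was negative, again with at least 1 alternative ending the call, in Jcr4S00065.140 (-6.72), Jcr4S09256.10 (-5.32), Jcr4S00610.110 (-5.18), Jcr4S01930.10 (-3.17), Jcr4S00065.160 (-2.85, but 2.78 with the day 13 controls, past the threshold at adjusted p = 0.0136), Jcr4S04197.20 (-1.37), Jcr4S02256.40 (-0.94) and Jcr4S02573.20 (-0.90).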

How the results depend on the processing

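Counts of members called moved by less than 1.5 times under all alternatives in severe drought leaves (21 to 27), in rewatering against severe drought (25 to 31 in leaf, 20 to 33 in root), between organs (35 to 46) and in the organ difference of the drought effect (17 to 29). Similar counts can hold different genes. With the day 13 controls, the organ difference was called in 18 genes, of which 10 were among the 21 main ones. Against the day 13 control, severe drought roots had 30 calls, of which 17 were among the main 26. Severe drought leaves had 26, of which 22 were among the main 27. Shares over all genes were not counted under the alternatives. Counts not given a range above were less stable. Moderate drought leaves had 1 member called without the filter and 1 under DESeq2, against 0 with edgeR. Moderate drought roots had 22 without the filter, 14 under DESeq2, 11 in the fit over all libraries, 1 with the replicate block and 0 to 7 with 1 library left out. Severe drought roots had 10 to 16 with 1 library left out. Rewatered leaves against the later control had 15 without the filter, 13 under DESeq2, 10 against the day 13 control and 0 to 15 with 1 library left out. Rewatered roots had 20 without the filter, 20 in the fit over all libraries, 0 against the day 13 control and 0 to 8 with 1 library left out. Watered leaves over time had 11 without the filter, 4 under DESeq2, 2 under limma, 0 in the fit over all libraries, 0 with the replicate block and 0 to 1 with 1 library left out, and watered roots over time had 6 to 20. The pathway list, whose alternatives were added after seeing the data, had 5 to 11 calls in severe drought roots with 1 library left out. The cause was not tested.

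Signs turned, or in 1 case the value became 0, in 18 values of called genes. Against day 13 control roots, rewatered roots had log2 fold changes of -1.63 in Jcr4S00065.140, -0.92 in Jcr4S00065.160, 0.51 in Jcr4S00284.120, 0.40 in Jcr4S00665.100, -0.31 in Jcr4S00922.60, 1.61 in Jcr4S05036.50, 0.14 in Jcr4S05705.10 and 0.40 in Jcr4S20386.10. Between organs with the day 49/52 controls, values were 2.71 in Jcr4S00065.140, -1.47 in Jcr4S00284.120, 1.16 in Jcr4S00922.60, -1.37 in Jcr4S05036.50 and -0.66 in Jcr4S05705.10, the first 4 past the threshold. With the day 13 controls, the organ difference of the drought effect was 2.78 in Jcr4S00065.160 (past it, adjusted p = 0.0136) and -0.11 in Jcr4S05705.10, the severe drought change of Jcr4S00610.90 in root was -0.082, and that of the P450 gene Jcr4S02883.20 in leaf was 0.78 (past it, adjusted p = 0.00751). Under limma, Jcr4S01930.10 in severe drought leaves was 0. Its deposited RPKM was the same there and in day 49/52 control leaves (7704.5, SD 0), so that scale could not show a change. Among 4110 alternative values of members not called, 266 had the other sign, 8 of them past the threshold, and the main fold changes of such members are not given in the text, a limit set after these values were seen.

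Replicate numbers were not treated as pairs. Deviations of same-numbered libraries from their group means correlated at -0.24 to 0.28 in leaf (6 of 15 over 0.1). In root they correlated at -0.22 to 0.20 (3 of 10 over 0.1). So few libraries cannot exclude pairing between some groups. A replicate block moved no count by over 1.5 times except those named. With 2 libraries a group and a common dispersion of 0.076 in root against 0.0362 in leaf, root calls are the less certain.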
